A study of Mus musculus with 6 samples.

Results

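Expression of the genes that make and use glutathione and thioredoxin was examined in the epididymal white fat (eWAT), an abdominal depot, of mice on a high-fat diet after gene delivery of Lmo3, a LIM-domain transcriptional cofactor. The members were all genes of the array whose only annotated symbol belongs to the glutathione transferases (Gsta, Gstk, Gstm, Gsto, Gstp, Gstt, Gstz and Mgst), the glutathione peroxidases (Gpx), the peroxiredoxins (Prdx), the thioredoxins (Txn) or the superoxide dismutases (Sod), together with Gclc, Gclm, Gss, Gsr and Nqo1. This rule found 45 of the 19938 genes measured and used no expression value. Of these, 37 were above the limit set for dim genes, a mean log2 intensity of 6.83, and were tested among 11963 genes, whereas Gstt4, Nqo1, Gpx2, Gstp3, Gpx5, Gsto2, Gpx6 and Gstm6 lay below it and are given by their values alone. Prdx5, Prdx6, Gstp2, Gsta1 and Gsta2 had no probe set of their own under the rule and were not analysed here.

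The rAAV-Lmo3 group comprised 3 arrays of eWAT that had received a recombinant adeno-associated virus (rAAV) carrying Lmo3, and the rAAV-YFP group 3 arrays of eWAT that had received the same kind of vector with yellow fluorescent protein. All mice were male C57BL6/J animals that were given a high-fat diet (HFD) for 12 weeks, beginning at 6 weeks of age, and every array held total RNA pooled from 2 mice. The vector, of the Rec2 serotype, was injected into both epididymal fat pads during the feeding period, and its promoter, a CMV enhancer joined to the chicken β-actin promoter, is not restricted to adipocytes. The titles of the control samples name rAAV-YFP and the description of the treatment names rAAV-LacZ, and the name in the titles is used. The probe set of Lmo3 gave 24, 26 and 24 on the rAAV-Lmo3 arrays and 24 to 25 on the rAAV-YFP arrays, a log2 difference of 0.02 ± 0.07 (SE) with an exact two-sided permutation p of 1, so that the delivered transcript was not seen by this probe set and the labels were not checked by it. The study itself reports strong Lmo3 expression by qPCR in eWAT of rAAV-Lmo3 mice, and LMO3 in mature adipocytes by microscopy. The smallest exact p that 3 pools against 3 can give is 0.1.

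Median intensities were 123 to 127.5 on the 6 arrays. The arrays rAAV-Lmo3 1 and rAAV-YFP 2 stood apart, since their correlation to the other arrays averaged 0.986 and 0.988, against 0.990 to 0.991 for the rest. Results that rest on these 2 arrays are therefore given with and without both of them or, where named, without the array that carries the value. All 9 adipocyte markers on the array were above the limit for dim genes, whereas 0 of the 9 epididymis markers reached it. The 12 macrophage markers were low on both arrays that stood apart, with a mean centred log2 level (score) of -0.50, 0.26 and 0.50 on rAAV-Lmo3 arrays 1, 2 and 3 and of 0.56, -0.81 and -0.00 on rAAV-YFP arrays 1, 2 and 3. In RNA of a whole tissue, fewer cells of a type and less RNA per cell cannot be told apart.

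Glutathione, a tripeptide with a reactive thiol, is made by glutamate-cysteine ligase and glutathione synthetase. Glutathione transferases couple it to electrophiles such as 4-hydroxynonenal, a product of lipid peroxidation, and glutathione peroxidases spend it on reducing peroxides, after which glutathione reductase restores it with NADPH. Peroxiredoxins reduce hydrogen peroxide with electrons from thioredoxin, and superoxide dismutases supply that peroxide from superoxide. Many of these genes are targets of the transcription factor NRF2, which binds the antioxidant response element together with small MAF proteins. In adipocytes, lipid aldehydes and mitochondrial peroxide are the substrates for which these enzymes are best known.

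The mu class transferases Gstm1 and Gstm3 were lower in rAAV-Lmo3 tissue, and the membrane-bound transferase Mgst2 and the mitochondrial peroxiredoxin Prdx3 were higher. These were the 4 tested members with an unadjusted limma p under 0.05, 10.8% of 37, where 4.66% of all 11963 genes passed the same limit. In the higher direction there were 2 members, 5.41% against 2.27% of all genes, and in the lower direction 2 members, 5.41% against 2.4% of all genes. After Benjamini-Hochberg adjustment 0 members and 0.0% of all genes passed, so none of these differences is called a change. By the methods' t-test 3 members passed the unadjusted limit, 8.11% against 4.64% of all genes. Groups did not overlap for these 4 members and for Gsto1, 13.5% of members against 10.5% of all genes. Of these, 3 were higher (8.11% against 4.53% of all genes) and 2 lower (5.41% against 5.95% of all genes). By size alone, 5 tested members, namely Mgst2, Prdx3, Gsta4, Gstm5 and Gsto1, differed by 0.3 or more upwards (13.5% against 3.56% of all genes), and Gstm1 and Gstm3 by as much downwards (5.41% against 2.47%). The remaining members had overlapping groups, and the log2 differences of all tested members ran from -0.67 to 0.79. Differences are always rAAV-Lmo3 minus rAAV-YFP on the log2 scale of intensity, with the standard error (SE) of the limma fit and n = 3 pools per group.

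**Figure D1:**
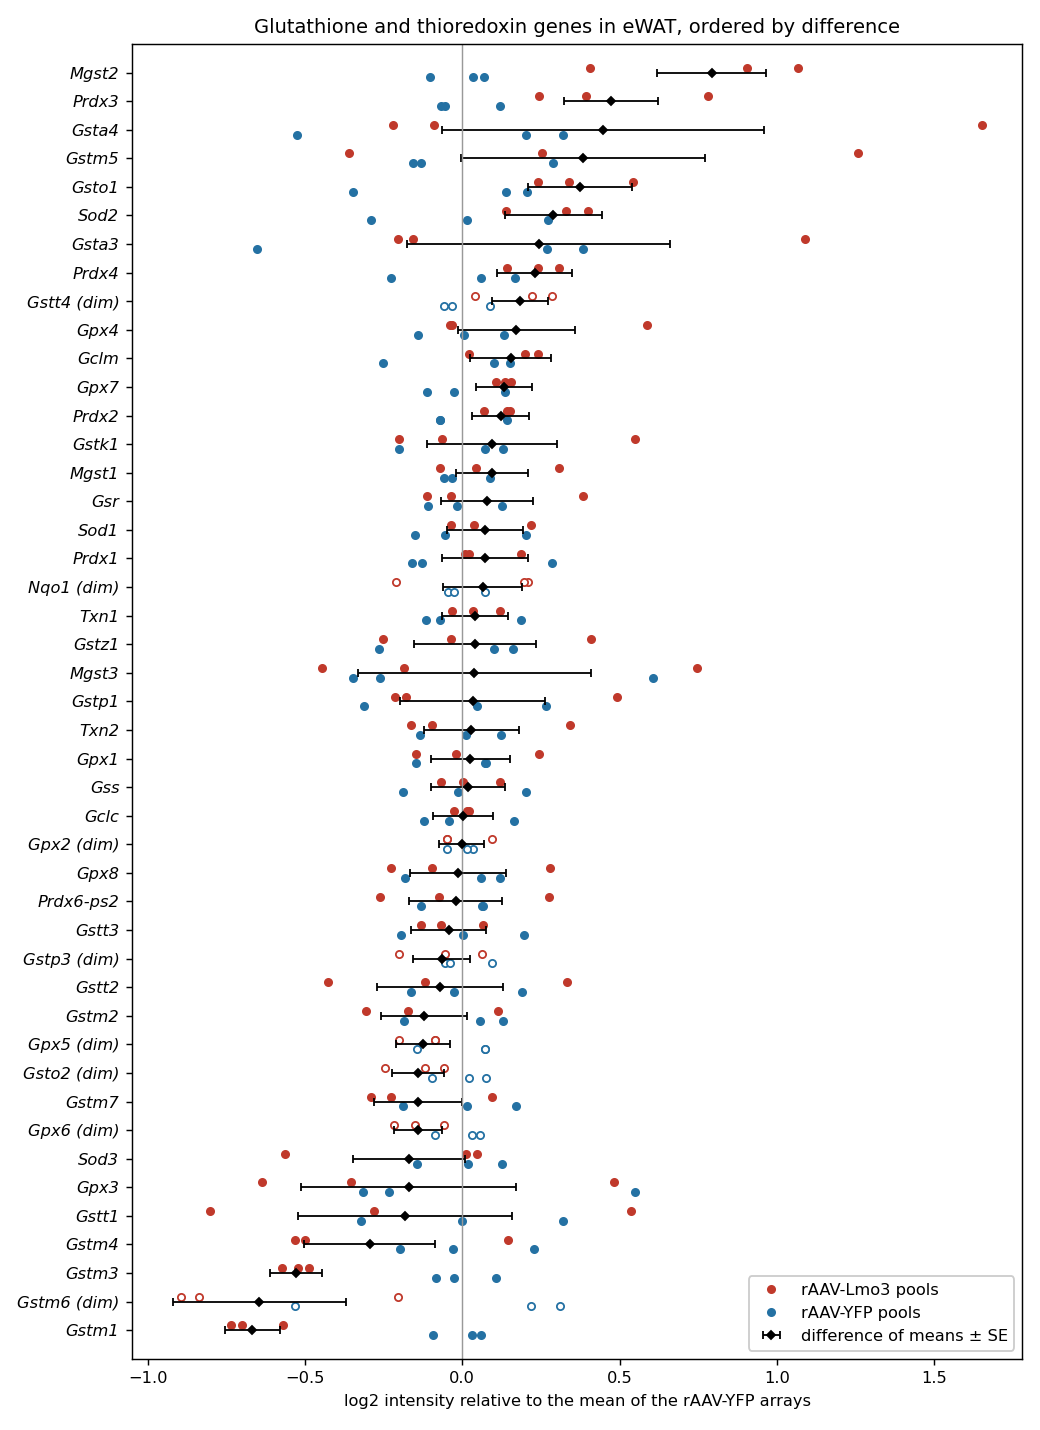
Log2 intensity of each of the 45 members on each array relative to its own rAAV-YFP mean (x axis, log2 units, with a line for each gene; red, rAAV-Lmo3; blue, rAAV-YFP; open circles, members below the limit for dim genes; black, difference of the group means ± SE, n = 3 pools per group). Mgst2 at 0.79 and Gstm1 at -0.67 stand at the ends of the order, and for Gsta4, Gstm5 and Gsta3 1 rAAV-Lmo3 pool lies far to the right of the others.

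Gstm1, a cytosolic transferase of the mu class, gave intensities of 3910, 3816 and 4280 in rAAV-Lmo3 tissue, against 5947, 6490 and 6621 in rAAV-YFP tissue. Each rAAV-Lmo3 pool was below each rAAV-YFP pool, and the spread within a group was small, with a log2 SD of 0.09 in rAAV-Lmo3 tissue and 0.08 in rAAV-YFP tissue. The difference was -0.67 ± 0.09, 1.59-fold lower, with a 95% confidence interval of -0.87 to -0.46. Of all 11963 genes tested Gstm1 had the smallest limma p, 0.00014, which after Benjamini-Hochberg adjustment was 0.669. Leaving out any 1 array gave -0.72 to -0.63, and leaving out both arrays that stood apart gave -0.63.

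Gstm3, a neighbouring mu class gene, gave 959, 925 and 981 in rAAV-Lmo3 tissue and 1353, 1483 and 1299 in rAAV-YFP tissue. Again the groups were well apart, by -0.53 ± 0.08, with an adjusted limma p of 0.885. Its unadjusted p was the 4th smallest of all genes. A dimmer probe set of Gstm3 lay below the limit for dim genes, so Gstm3 was tested through its brighter probe set alone. By its number the dimmer probe set falls among those of Gstm7, Gstm6, Gstm2, Gstm1 and Gstm4, and the brighter one does not. Where the brighter one lies on the genome was not examined. The dimmer one gave 96, 86 and 86 in rAAV-Lmo3 tissue and 104, 112 and 105 in rAAV-YFP tissue, a difference of -0.26. The mean over both probe sets differed by -0.39. The mu class genes are close paralogs whose transcripts may share probes, so how much of the signal belongs to Gstm1 and how much to Gstm3 is uncertain.

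**Figure D2:**
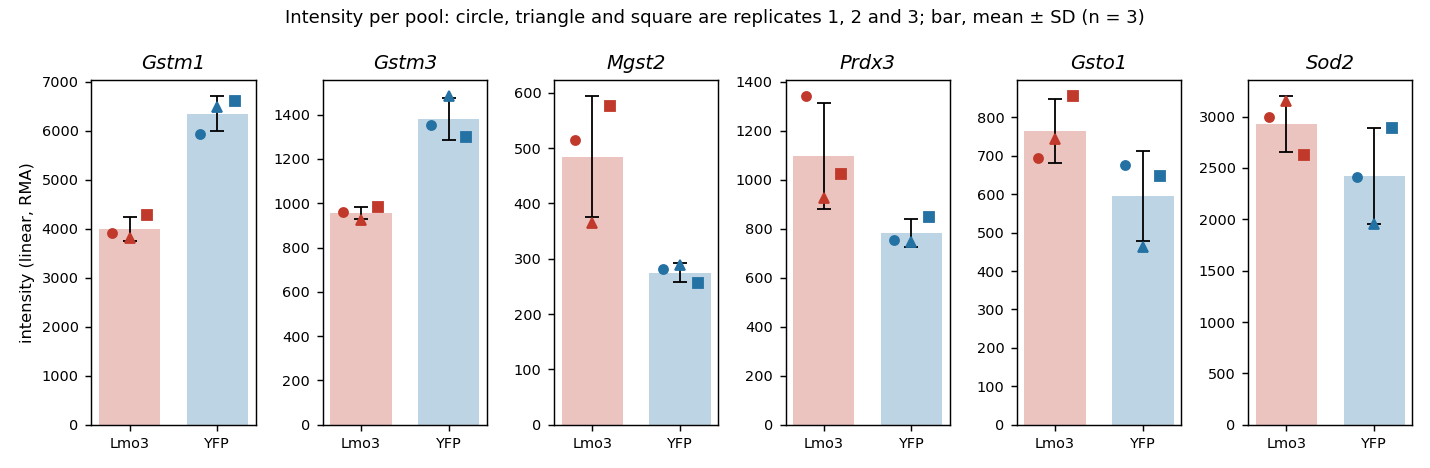
Linear RMA intensity (vertical axis) of the members whose groups did not overlap and of Sod2, by pool (red, rAAV-Lmo3; blue, rAAV-YFP; circles, triangles and squares, replicates 1, 2 and 3; bars, mean ± SD, n = 3). Gstm1 lies between 3816 and 4280 in rAAV-Lmo3 tissue and between 5947 and 6621 in rAAV-YFP tissue, whereas the pools of Sod2 overlap.

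The 7 mu class genes follow each other on chromosome 3 with no other protein-coding gene between them, in the order Gstm5, Gstm7, Gstm6, Gstm3, Gstm2, Gstm1 and Gstm4. Of the 6 tested, 5 had a difference below 0, and the median was -0.22, or -0.33 without both arrays that stood apart. Gstm4 gave 599, 383 and 374 in rAAV-Lmo3 tissue and 472, 633 and 530 in rAAV-YFP tissue, a difference of -0.29 ± 0.21. Gstm2 (2061, 1691 and 1543 in rAAV-Lmo3 tissue, against 1675, 1983 and 2083 in rAAV-YFP tissue) differed by -0.12 ± 0.14 and Gstm7 by -0.14 ± 0.14, about as much as their SE. In all 3 genes rAAV-Lmo3 1 was the highest of its group, and without both arrays that stood apart the differences were -0.40 for Gstm4, -0.21 for Gstm2 and -0.25 for Gstm7.

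Gstm6 was below the limit for dim genes at 79, 49 and 51 in rAAV-Lmo3 tissue and 63, 106 and 113 in rAAV-YFP tissue. Its groups overlapped through rAAV-Lmo3 1 and rAAV-YFP 1, and the difference was -0.64 ± 0.28. Gstm5, at 1 end of the cluster, gave 974, 317 and 485 in rAAV-Lmo3 tissue and 365, 497 and 372 in rAAV-YFP tissue. It was the only mu class gene with a difference above 0, 0.38 ± 0.39, and the size of this depended on rAAV-Lmo3 1. The value was -0.05 without that array and 0.09 without both arrays that stood apart. Whether Gstm5 differed from its neighbours in its response was not tested.

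**Figure D3:**
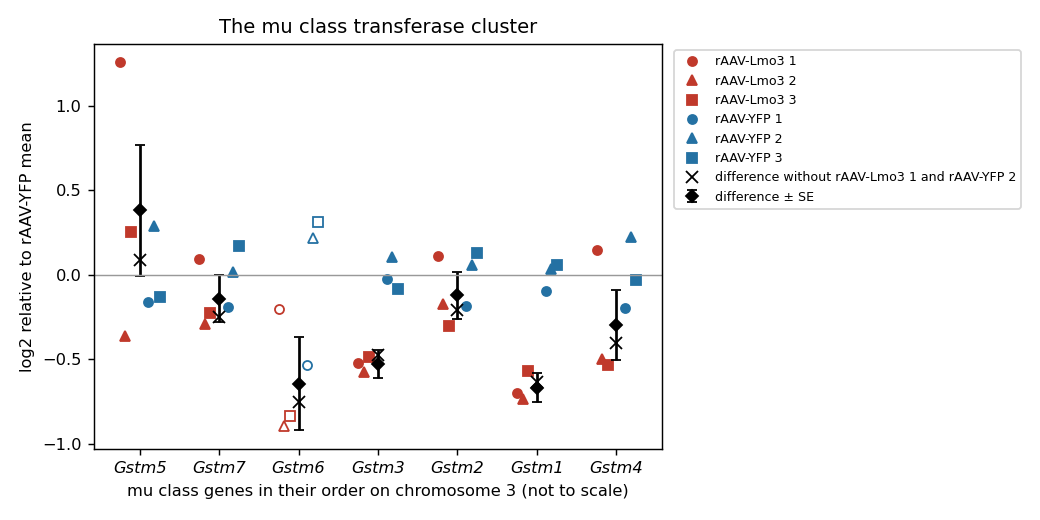
Log2 intensity of the mu class genes relative to their rAAV-YFP mean (vertical axis, log2 units) in their order on chromosome 3 (horizontal axis, not to scale; red, rAAV-Lmo3; blue, rAAV-YFP; open symbols, below the limit for dim genes; diamonds, difference ± SE, n = 3 pools per group; crosses, difference without rAAV-Lmo3 1 and rAAV-YFP 2). Gstm3 at -0.53 and Gstm1 at -0.67 have tight groups, and Gstm5 at 0.38 is drawn up by a single pool.

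Mgst2, a membrane-bound transferase that also makes leukotriene C4, gave 514, 364 and 576 in rAAV-Lmo3 tissue, against 281, 288 and 256 in rAAV-YFP tissue. The rAAV-Lmo3 pools were all higher but varied more, with a log2 SD of 0.34, against 0.09 in rAAV-YFP tissue. The difference was 0.79 ± 0.17, with an adjusted limma p of 0.970, and it was 0.77 without the arrays that stood apart. The other membrane-bound members overlapped between groups. Mgst1, which also reduces lipid peroxides, gave 5496, 4232 and 4578 in rAAV-Lmo3 tissue and 4342, 4721 and 4269 in rAAV-YFP tissue (0.09 ± 0.11). Mgst3 gave 2364, 1035 and 1241 in rAAV-Lmo3 tissue and 1177, 2146 and 1109 in rAAV-YFP tissue (0.04 ± 0.37), with its high values on the 2 arrays that stood apart.

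The bases upstream of the transcription start are shown for the 4 members with an unadjusted p under 0.05, none of which passed adjustment. They were taken from RefSeq (GRCm38.p6) as the 250 bases before the start, 5′ to 3′ on the gene's own strand, at chr3:108017819-108018068 (minus strand, the downstream of 2 starts) for Gstm1, chr3:107969175-107969424 (minus strand) for Gstm3, chr3:51660929-51661178 (plus strand) for Mgst2 and chr19:60874539-60874788 (minus strand) for Prdx3. Capitals mark matches to the TATA box letters TATAAA and to the AP-1 letters TGACTCA on either strand.
Gstm1: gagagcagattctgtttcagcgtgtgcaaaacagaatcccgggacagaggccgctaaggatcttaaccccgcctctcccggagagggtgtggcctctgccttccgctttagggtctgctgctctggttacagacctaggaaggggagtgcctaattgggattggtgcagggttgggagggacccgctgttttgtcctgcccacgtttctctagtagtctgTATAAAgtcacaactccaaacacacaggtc
Gstm3: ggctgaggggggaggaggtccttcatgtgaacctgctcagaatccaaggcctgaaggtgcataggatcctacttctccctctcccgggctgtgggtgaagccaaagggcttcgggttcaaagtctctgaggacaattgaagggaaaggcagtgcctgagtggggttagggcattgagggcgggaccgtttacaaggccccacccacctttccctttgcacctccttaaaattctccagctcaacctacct
Mgst2: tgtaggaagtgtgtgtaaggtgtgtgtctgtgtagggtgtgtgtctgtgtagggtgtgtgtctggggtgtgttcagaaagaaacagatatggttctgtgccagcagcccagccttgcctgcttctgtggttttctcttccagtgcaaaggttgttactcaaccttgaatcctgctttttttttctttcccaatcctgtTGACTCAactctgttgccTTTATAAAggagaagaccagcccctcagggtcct
Prdx3: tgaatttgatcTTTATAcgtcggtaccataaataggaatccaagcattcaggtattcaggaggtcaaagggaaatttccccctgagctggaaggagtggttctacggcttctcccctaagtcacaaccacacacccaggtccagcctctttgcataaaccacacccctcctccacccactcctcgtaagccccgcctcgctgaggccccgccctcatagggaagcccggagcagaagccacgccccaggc

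Gstm1 held TATAAA 30 to 25 bases before its start and Mgst2 32 to 27 bases before it, where a TATA box usually lies, while the match in Prdx3 lay 239 to 234 bases before the start and Gstm3 had none. Mgst2 also held TGACTCA 52 to 46 bases before the start. Promoters were given for 39 of the 45 members, with 51 starts in all. TATAAA was found in 15.7% of these 51 promoters and in 12.4% of all 32851 promoters, and TGACTCA in 7.84% of the members' promoters (Gstm5, Gstp1, Mgst2 and Prdx1) and 4.46% of all. The core of the antioxidant response element, TGACNNNGC, was found in 13.7% of the members' promoters and 10.2% of all, namely at Gclm, Gsta3, Gstm5, Gstm7, Mgst1, Prdx1 and Sod1. In Prdx1 a match to it contains one of the AP-1 matches. A match describes the letters only.

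The alpha class transferases varied more between pools than between groups. Gsta4, which conjugates 4-hydroxynonenal, gave 732, 219 and 200 in rAAV-Lmo3 tissue and 162, 291 and 268 in rAAV-YFP tissue, a difference of 0.45 ± 0.51. Gsta3 gave 1549, 631 and 652 in rAAV-Lmo3 tissue and 463, 876 and 949 in rAAV-YFP tissue, a difference of 0.24 ± 0.42. Array rAAV-Lmo3 1 was far above the other pools for both genes, and without it the differences were -0.15 for Gsta4 and -0.18 for Gsta3. Without both arrays that stood apart they were 0.01 for Gsta4 and -0.05 for Gsta3.

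Among the other cytosolic classes Gsto1, an omega class enzyme that reduces dehydroascorbate, was 694, 743 and 855 in rAAV-Lmo3 tissue and 677, 462 and 647 in rAAV-YFP tissue. Its groups were narrowly apart, by 0.37 ± 0.17, with an unadjusted limma p of 0.059. The difference was 0.20 without rAAV-YFP 2 and 0.27 without both arrays that stood apart. Gstp1, the pi class enzyme, gave 3556, 2179 and 2231 in rAAV-Lmo3 tissue and 2033, 3038 and 2611 in rAAV-YFP tissue (0.03 ± 0.23). Gstz1, which also works in tyrosine breakdown, gave 5398, 3962 and 3417 in rAAV-Lmo3 tissue and 3384, 4550 and 4363 in rAAV-YFP tissue (0.04 ± 0.19). Neither of these last 2 separated the groups.

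Gstt1, a theta class enzyme, gave 880, 348 and 500 in rAAV-Lmo3 tissue and 486, 758 and 607 in rAAV-YFP tissue. The difference of -0.18 ± 0.34 was -0.54 without rAAV-Lmo3 1, 0.13 without rAAV-Lmo3 2 and -0.38 without both arrays that stood apart. The neighbouring Gstt2 (-0.07 ± 0.20) and Gstt3 (-0.04 ± 0.12) were within their errors. The kappa class gene Gstk1, whose product lies in mitochondria and peroxisomes, gave 1377, 900 and 818 in rAAV-Lmo3 tissue and 818, 989 and 1028 in rAAV-YFP tissue (0.10 ± 0.21), and differed by -0.10 without the arrays that stood apart. The dim members Gstt4 (56 to 71), Gstp3 (75 to 92) and Gsto2 (64 to 80) stayed low on all 6 arrays.

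The groups overlapped for all 5 tested glutathione peroxidases. Gpx1, the abundant cytosolic selenoenzyme, gave 6736, 5133 and 5610 in rAAV-Lmo3 tissue and 5972, 5995 and 5133 in rAAV-YFP tissue, a difference of 0.03 ± 0.13 with a 95% confidence interval of -0.27 to 0.33. Gpx4, which reduces lipid hydroperoxides in membranes and restrains ferroptosis, differed by 0.17 ± 0.18 and by 0.03 without the arrays that stood apart. Gpx3, the secreted plasma enzyme, gave 6338, 2915 and 3549 in rAAV-Lmo3 tissue and 3862, 6634 and 3643 in rAAV-YFP tissue. It was high on 1 array of each group, the 2 arrays that stood apart, so that the difference of -0.17 ± 0.34 is small beside the spread between pools. The peroxidases of the endoplasmic reticulum, Gpx7 (0.13 ± 0.09) and Gpx8 (-0.01 ± 0.15), overlapped between groups. The dim members were Gpx2, known from gut epithelium (67 to 74), Gpx5, known from epididymis (24 to 29), and Gpx6, known from olfactory tissue (43 to 52).

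The members placed in mitochondria alone, Prdx3, Sod2 and Txn2, all had differences above 0 over the 6 arrays, with a median of 0.29. Without both arrays that stood apart 2 of the 3 were above 0 and the median was 0.13. Gstk1, placed in mitochondria and peroxisomes, is not among them and differed by 0.10, or by -0.10 without both arrays. Prdx3, the peroxiredoxin of the mitochondrial matrix, gave 1342, 926 and 1026 in rAAV-Lmo3 tissue, against 753, 745 and 850 in rAAV-YFP tissue. Each rAAV-Lmo3 pool was above each rAAV-YFP pool, by 0.47 ± 0.15 in the mean, with an adjusted limma p of 0.970. The value depended in part on rAAV-Lmo3 1, being 0.32 without it and 0.28 without both arrays that stood apart. Sod2, the manganese superoxide dismutase, gave 3001, 3156 and 2630 in rAAV-Lmo3 tissue and 2417, 1956 and 2886 in rAAV-YFP tissue (0.29 ± 0.15), with 1 rAAV-YFP pool inside the range of the rAAV-Lmo3 pools. It was 0.15 without rAAV-YFP 2 and 0.13 without both. Txn2, the mitochondrial thioredoxin, differed by 0.03 ± 0.15, and by -0.07 without both.

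Beside these, 14 of 14 tested genes of a reference list for the respiratory chain and citrate synthase had differences above 0, with a median of 0.28, where 50.3% of all genes and 67.6% of the tested members were above 0 and the median of all genes was 0.00. The score of that list was 0.44, -0.06 and 0.01 on rAAV-Lmo3 arrays 1, 2 and 3, against -0.22, -0.07 and -0.11 on rAAV-YFP arrays 1, 2 and 3. Like Prdx3 it was highest on rAAV-Lmo3 1, and without both arrays that stood apart all 14 genes remained above 0 with a median of 0.12. The 6 tested markers of brown and beige adipocytes also all had differences above 0. Of these, 4 were higher at an unadjusted limma p under 0.05, where 2.27% of all genes were. The other listed markers, Ucp1, Cidea, Elovl3 and Dio2, were below the limit for dim genes. List scores of the tested markers were 0.67, 0.16 and 0.34 in rAAV-Lmo3 tissue and -0.55, -0.34 and -0.27 in rAAV-YFP tissue. Their part in the values of Prdx3 and Mgst2 was not tested.

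In the cytosol, Prdx1, a peroxiredoxin and NRF2 target, gave 3734, 3302 and 3330 in rAAV-Lmo3 tissue and 3995, 2938 and 3003 in rAAV-YFP tissue (0.07 ± 0.14). Prdx2 differed by 0.12 ± 0.09, and Prdx4 of the endoplasmic reticulum by 0.23 ± 0.12 with overlapping groups, or 0.11 without the arrays that stood apart. The pseudogene Prdx6-ps2 gave -0.02 ± 0.15. Txn1, the cytosolic thioredoxin, gave 3507, 3667 and 3898 in rAAV-Lmo3 tissue and 4080, 3308 and 3409 in rAAV-YFP tissue (0.04 ± 0.11). Cytosolic Sod1 differed by 0.07 ± 0.12. Secreted Sod3 gave 1715, 2555 and 2619 in rAAV-Lmo3 tissue and 2568, 2291 and 2765 in rAAV-YFP tissue (-0.17 ± 0.18). It was 0.03 without rAAV-Lmo3 1, its lowest pool, and -0.04 without both arrays that stood apart.

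The genes that make and restore glutathione had overlapping groups. Gclc, the catalytic subunit of glutamate-cysteine ligase, gave 421, 407 and 419 in rAAV-Lmo3 tissue and 403, 381 and 465 in rAAV-YFP tissue, a difference of 0.00 ± 0.10 with a 95% confidence interval of -0.22 to 0.23. Its modifier subunit Gclm gave 707, 822 and 799 in rAAV-Lmo3 tissue and 746, 585 and 773 in rAAV-YFP tissue (0.15 ± 0.13). Gclm was at 0.03 without rAAV-YFP 2 and at 0.09 without both arrays that stood apart. Glutathione synthetase, Gss, gave 414, 363 and 381 in rAAV-Lmo3 tissue and 377, 334 and 438 in rAAV-YFP tissue (0.02 ± 0.12). Glutathione reductase, Gsr, gave 1024, 726 and 765 in rAAV-Lmo3 tissue and 857, 775 and 727 in rAAV-YFP tissue (0.08 ± 0.15), and differed by -0.08 without the arrays that stood apart. The quinone reductase Nqo1, a target by which NRF2 activity is often read, was dim at 99, 74 and 98 in rAAV-Lmo3 tissue and 83, 84 and 90 in rAAV-YFP tissue.

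A pattern across pools ran through many members and crossed the groups. Both rAAV-Lmo3 1 and rAAV-YFP 2 were the highest of their group for 15 of 37 tested members, 40.5%, where this held for 20.7% of all genes, and both were the lowest for 4 members, 10.8% against 25.8%. The members high on both included Gsta4, Gstm5, Gstm4, Gstt1, Gstp1, Gstz1, Mgst3, Gpx3 and Gpx4. For Mgst3 rAAV-Lmo3 1 was 1.06 above the mean of the other rAAV-Lmo3 pools and rAAV-YFP 2 was 0.91 above the mean of the other rAAV-YFP pools, and for Gpx3 these values were 0.98 and 0.82. Those low on both were Gsto1, Gclm, Txn1 and Sod3. Gstm1 (-0.05 and 0.05) and Gstm3 (0.01 and 0.16) hardly took part. Macrophage markers were low and adipocyte markers high on the same 2 arrays, with adipocyte scores of 0.09, -0.04 and -0.16 on rAAV-Lmo3 arrays 1, 2 and 3 and -0.08, 0.17 and 0.03 on rAAV-YFP arrays 1, 2 and 3, and their part in these values was not tested. The count of members above 0, 25 of 37 with all arrays, was 14 of 37 without both, where 47.8% of all genes were above 0. The 11 members that turned to below 0 were Gclc, Gpx1, Gsr, Gss, Gsta3, Gstk1, Gstp1, Gstz1, Mgst3, Prdx1 and Txn2, at -0.13 to -0.01 without both.

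**Figure D4:**
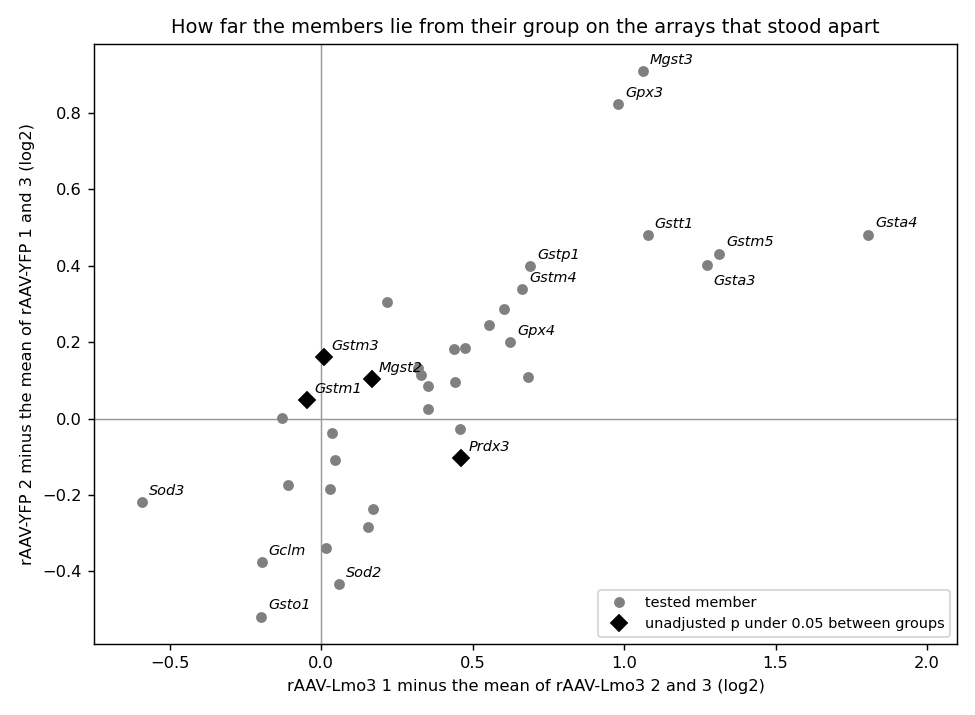
Deviation of array rAAV-Lmo3 1 from the mean of the other rAAV-Lmo3 arrays (horizontal axis, log2 units) and of rAAV-YFP 2 from the mean of the other rAAV-YFP arrays (vertical axis, log2 units) for the 37 tested members (grey circles) and, among them, the 4 with an unadjusted p under 0.05 between groups (black diamonds). Most transferases and Gpx3 lie in the upper right, whereas Gstm1 at -0.05 and 0.05 lies close to the origin.

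Beside Gstm1 and Gstm3, the marker lists with the lowest medians were the mesothelial list, with 6 of 6 tested genes below 0 and a median of -0.33, and the T and NK cell list, with 2 of 2 tested genes below 0 and a median of -0.36. The mesothelial score was -0.11, -0.40 and 0.01 on rAAV-Lmo3 arrays 1, 2 and 3 and -0.29, 0.02 and 0.76 on rAAV-YFP arrays 1, 2 and 3, and the groups overlapped. The score of the T and NK cell list was -0.20 to -0.15 on rAAV-Lmo3 arrays and 0.00 to 0.42 on rAAV-YFP arrays, and the groups did not overlap. This score rests on 2 of the 8 listed genes, Cd3e (-0.42 ± 0.17, groups apart) and Nkg7 (-0.30 ± 0.15, overlapping). The rest were below the limit for dim genes and differed by -0.19 (Cd3g) to 0.13 (Gzma). None of these values shows which cells differed. The part of these 2 lists in the lower values of Gstm1 and Gstm3 was not tested.

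Genes that work with the members are described by list. Of all genes tested, 2.27% were higher and 2.4% lower at an unadjusted limma p under 0.05. Differences were above 0 for 50.3% of all genes, or 47.8% without both arrays that stood apart. Without both arrays 282 of all 11963 genes were higher and 220 lower at the same unadjusted limit. Of 24 tested partners of thioredoxin and glutaredoxin, 18 were above 0, 2 were higher and 0 lower at an unadjusted p under 0.05, and the median was 0.13. Glrx5, a mitochondrial glutaredoxin of iron-sulphur cluster assembly, gave 1158, 909 and 875 in rAAV-Lmo3 tissue and 679, 733 and 808 in rAAV-YFP tissue (0.40 ± 0.13). Txndc12, a thioredoxin-like protein of the endoplasmic reticulum, was higher by 0.25 ± 0.09, also with groups apart, and the sestrin Sesn1 by 0.24 ± 0.13 with overlap. Without both arrays that stood apart 14 of the 24 were above 0, the median was 0.02, and 0 passed the unadjusted limit.

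Of 21 tested genes of glutathione precursor supply, export and breakdown, 13 were above 0 with a median of 0.09, and 2 were higher at an unadjusted p under 0.05. These were Glo1, which clears methylglyoxal with glutathione (0.30 ± 0.10), and Oplah, which recycles 5-oxoproline to glutamate (0.33 ± 0.12). The exporter Abcc4 had groups apart in the other direction at -0.14 ± 0.07. Without both arrays that stood apart 10 of the 21 were above 0, the median was -0.00, 1 passed in the higher direction, and Glo1 differed by 0.18 and Oplah by 0.26.

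Of 16 tested genes of NADPH supply, 11 were above 0 with a median of 0.11, and 2 passed in the higher direction. Me1, the cytosolic malic enzyme, gave 5408, 5470 and 5203 in rAAV-Lmo3 tissue and 3233, 3870 and 4263 in rAAV-YFP tissue (0.51 ± 0.11), and was 0.52 without the arrays that stood apart. Idh1 differed by 0.21 ± 0.09 and Taldo1 by 0.32 ± 0.14. Without those arrays Idh1 was at 0.13 and Taldo1 at 0.18, and 9 of the 16 genes were above 0 with a median of 0.04, of which 1 passed in the higher direction.

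Of 12 tested regulators of NRF2, 10 were below 0 with a median of -0.08, and Mafk passed in the lower direction. The list holds partners of NRF2 beside its repressor Keap1, so this count and median give no direction for NRF2. Mafk, a small MAF partner of NRF2, gave 255, 271 and 269 in rAAV-Lmo3 tissue and 310, 347 and 306 in rAAV-YFP tissue (-0.27 ± 0.08). The groups were also apart for Mafg, another small MAF gene (-0.19 ± 0.10), and for the NRF2 relative Nfe2l3 (-0.17 ± 0.09). Cul3, also of this list, had groups apart in the lower direction as well, at -0.10. Nfe2l2, which encodes NRF2 itself, differed by -0.00 and its repressor Keap1 by -0.00. Without both arrays that stood apart 1 of the 12 was above 0 and the median was -0.05, but Mafk was at -0.19 and 0 passed in either direction. Of 20 other NRF2 targets, 15 were above 0 with a median of 0.08, and only Me1 passed. Taldo1 had groups apart, and Cbr1 overlapped at 0.24 ± 0.11. Without both arrays 13 of the 20 targets were above 0 with a median of 0.04.

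Selenoprotein synthesis, on which Gpx1 to Gpx4 depend, had 9 of 10 tested genes above 0 with a median of 0.09. Sephs2, which makes the selenium donor, gave 472, 367 and 409 in rAAV-Lmo3 tissue, against 260, 249 and 307 in rAAV-YFP tissue. The groups were clearly apart, by 0.61 ± 0.13 with an adjusted limma p of 0.970, and by 0.46 without the arrays that stood apart. Trnau1ap (0.15 ± 0.10) and Sepsecs (0.16 ± 0.11) overlapped. Without those arrays 7 of the 10 genes were above 0 with a median of 0.07. Of 21 other enzymes for peroxides, methionine sulphoxide and aldehydes, 11 were above 0 with a median of 0.00. The methionine sulphoxide reductase Msrb2 (0.26 ± 0.09) and Cbr4 (0.34 ± 0.13) passed the unadjusted limit in the higher direction, and the matrix peroxidase Pxdn (-0.34 ± 0.13) in the lower. Without both arrays that stood apart 10 of the 21 were above 0 with a median of -0.00, and 1 passed in the higher and 0 in the lower direction. Of 15 sources of superoxide and hydrogen peroxide, 10 were above 0 with a median of 0.07 and 0 passed in either direction, with Xdh at -0.29 ± 0.13, Aoc3 at -0.31 ± 0.15 and Ero1a at 0.15 ± 0.10. Without both arrays 7 of the 15 were above 0, the median was -0.01, and 1 passed in the lower direction. In the respiratory chain list, Cycs (0.41 ± 0.10) and Cs (0.26 ± 0.09) passed the unadjusted limit in the higher direction, and Uqcrc1 (0.21 ± 0.09) had groups apart. Without both arrays 1 of this list passed.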

How the data were processed

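Affymetrix mouse Gene ST arrays measured eWAT RNA (100 ng each), 3 for rAAV-Lmo3 and 3 for rAAV-YFP, grouped by the sample titles. Each array is a pool of 2 mice, so p-values rest on the variation from pool to pool. The deposited values are intensity values per probe set, which the authors summarised by RMA in Affymetrix Expression Console 1.1 (per the labels). They are linear whole numbers where log2 had been assumed in the plan, so they were converted to log2. Rounding is coarse for dim probe sets, and the small number of arrays limits precision.

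Of 35556 probe sets, 21789 had exactly 1 gene symbol in the platform annotation, 1621 had several and 12146 had none. A gene was represented by its brightest probe set (mean of 6 arrays). All 45 members kept their symbol in RefSeq (GRCm38.p6). The dimmest 40% of 19938 genes were left out, and the remaining 11963 were compared by two-sided limma (version 3.58.1, R 4.3.3, lmFit with eBayes), adjusted over all of them after Benjamini and Hochberg. The threshold was 0.05. The methods' t-test was run beside it. A list score is the mean over a list's tested genes of log2 values centred per gene. The steps were tested on simulated data.

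Values on every array are given for members with an unadjusted p under 0.05 or groups that do not overlap, for those with a log2 difference of 0.3 or more in size, and for the brightest member of each family, and up to 3 genes of each pathway list are named by smallest p. Members and lists were chosen with earlier results of these data known. Members beyond this rule were given as single values, and Nfe2l2, Keap1, Cul3 and values of further members on every array were added after they were seen.

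The labels give groups the same replicate numbers. They do not say whether a number marks a shared litter or day. The correlations of the deviations of same-numbered arrays were -0.55, -0.40 and 0.26. These cannot decide it, since the deviations also carry the pattern across pools, so the replicate number was used only as an alternative. Alternatives were centring on the array median, a second quantile normalization, array weights, a trend and robust prior, a replicate block, other filters on dim genes (none, or the dimmest 60% left out), the mean over probe sets, log2 of intensity plus 16, and leaving out each array. Leaving out both arrays that stood apart was added after seeing the data.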

Additional observations from a re-analysis of the deposited data

How the results depend on the processing

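The count of members with an adjusted p under 0.05 was 0 under every alternative run. Gstm1, Gstm3 and Mgst2 stayed at an unadjusted p under 0.05 in all 17 alternatives, and Prdx3 in 16 of 17, with 0.050 by the methods' t-test. Over these alternatives the adjusted limma p of Gstm1 was lowest with array weights, at 0.287, and reached 1.00. Gsto1 passed the unadjusted limit in 3 of 17.

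The count of higher members at an unadjusted p under 0.05 was 2 in the reported fit, 1 by the methods' t-test, and 2 to 4 when 1 array was left out (4 without rAAV-YFP 1). The count of lower members was 2 to 3 when 1 array was left out. In the reported fit 2.27% of all genes were higher and 2.4% lower at the same limit. Such shares are not given for array weights, the replicate block or fits with 1 array left out, so those counts have no baseline. The count of members above 0 was 25 in the reported fit, 67.6% against 50.3% of all genes. It was 14 with array weights, and 14 without both rAAV-Lmo3 1 and rAAV-YFP 2, where 47.8% of all genes were above 0. When 1 array was left out it was 12 to 30 (12 without rAAV-Lmo3 1), and the cause was not tested. Centring each array on its median gave 27 and a second quantile normalization 20. The median over members, 0.04, was -0.07 to 0.11 when 1 array was left out, -0.04 with array weights and -0.05 without both arrays. Leaving out 1 array turned the sign of 24 of 37 tested members in at least 1 case, of 15 when it was rAAV-Lmo3 1.

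Whether the replicate numbers pair the arrays is not stated by the labels. With the replicate number as a block the counts at an unadjusted p under 0.05 were 2 higher and 2 lower members, 25 of 37 were above 0, the median was 0.04, and 0 passed adjustment. No Lmo3 array correlated best with the YFP array of its own number.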
